A study of Mus musculus with 12 samples.

Results

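The ATF4 and amino acid response genes described here are a list of 32 mouse genes, of which 31 had a probe set that names them alone, out of 18193 genes tested. Each gene is represented by 1 probe set, the one whose mean over the 12 arrays was highest, and Pycr1 was not analysed here. The arrays (Affymetrix MG430 2.0) hold RNA of STHdh cells, lines derived from the striatum of embryonic knock-in mice. The mutant line STHdhQ111/Q111 (Q111 cells) carries huntingtin with an expanded glutamine tract, as in Huntington's disease, and the line STHdhQ7/Q7 (Q7 cells) carries the wild-type length. There were 4 groups of 3 arrays each: Q111 cells after 6 h at 42 °C, Q111 cells kept at 33 °C, Q7 cells after 6 h at 42 °C, and Q7 cells kept at 33 °C. Both lines grew in serum-containing medium with G418, and each genotype is 1 cell line, so genotype and line cannot be told apart. The groups allow heat shock to be tested within each line, the effects of the lines to be set against each other, and the lines to be compared at either temperature.

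ATF4 is a transcription factor that is made mainly by translational control. When a kinase phosphorylates the initiation factor eIF2, general protein synthesis falls while Atf4 mRNA is translated more, and ATF4 then switches on genes for amino acid synthesis, amino acid import and stress control. The kinases sense different insults: PERK senses unfolded proteins in the endoplasmic reticulum, GCN2 senses uncharged tRNA, HRI is activated by haem lack and mitochondrial stress, and PKR by double-stranded RNA. Because ATF4 protein is controlled at translation, the level of Atf4 mRNA measured here is not a measure of ATF4 activity.

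Values are log2 levels per probe set. Differences are on the log2 scale and carry the standard error (SE) of a limma fit of the 4 group means over all genes. P-values are Benjamini-Hochberg adjusted over all genes, two-sided, and a gene passed the test at an adjusted p under 0.05. Nothing in the labels ties replicates to separate cultures, and the spread behind the p-values may therefore be technical. In RNA of whole cultures, fewer cells of a type and less RNA per cell cannot be told apart. The heat shock itself showed in Hspa1a, an inducible chaperone, which averaged 12.43 ± 0.26 in heat-shocked Q111 cells and 5.95 ± 0.33 in untreated ones (SD, n = 3 each), and 11.45 ± 0.04 in heat-shocked Q7 cells and 5.96 ± 0.37 in untreated ones. Htt, the gene that differs by design, was lower in Q111 cells at 33 °C (difference -1.29, SE 0.17, adjusted p = 0.000265).

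Several facts of the arrays touch the results. Levels at or under 5.14, the highest value of 27 probe sets for bacterial RNA, are called background range, and all 31 genes averaged above it in every group. Of 8 marker genes of striatal projection neurons, 4 averaged above background in heat-shocked and 2 in untreated Q111 cells, and 5 in heat-shocked and 4 in untreated Q7 cells. Drd2 and Ppp1r1b were in background range in all 4 groups, while Rgs9 and Pde10a were above it in all 4. Drd1 and Bcl11b were above it in heat-shocked cells of both lines and in background range in untreated cells of both. Penk went the other way in Q7 cells, above background untreated and in background range after heat shock, and was in background range in Q111 cells. Tac1 was above background in heat-shocked and untreated Q7 cells and in background range in heat-shocked and untreated Q111 cells. The neural progenitor gene Sox2 averaged 3.96 ± 0.89 in heat-shocked Q111 cells and 4.71 ± 0.29 in untreated ones, against 10.96 ± 0.05 in heat-shocked and 10.60 ± 0.34 in untreated Q7 cells (SD, n = 3 each). The gap between 3′ and 5′ probe sets of the actin control, a sign of RNA or cDNA length, averaged 1.25 and 0.72 in heat-shocked and untreated Q111 cells, and 1.48 and 0.54 in heat-shocked and untreated Q7 cells. The level of the median gene was also lower after heat shock, at 6.64 against 7.36 in Q111 cells and 7.01 against 7.37 in Q7 cells. As deposited, the median difference of all genes for heat shock was -0.018 in Q111 and 0.0026 in Q7 cells. Centring each array on its median gene moved these to 0.71 and 0.35. Within this module the third untreated Q7 array stood apart: it was the highest of its group for 21 of 31 genes, against 36.8% of all genes. The first untreated Q111 array was the lowest of its group for 19 of 31, against 42.2% of all genes. The third heat-shocked Q111 array was the lowest for 17 of 31, against 51.7% of all genes. Its median gene stood at 6.43, against 6.74 on the other heat-shocked Q111 arrays. The second heat-shocked Q7 array was the lowest for 19 of 31, against 50.8% of all genes.

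In Q111 cells, 7 of the 31 genes rose after heat shock and 4 fell, at a median difference of 0.07. Over all genes 20.0% rose and 28.2% fell, so the share that rose was near the background and the share that fell was below it. In Q7 cells, 4 rose and 5 fell at a median difference of -0.06, against 12.3% and 18.1% of all genes. The transcription factor genes Cebpb and Cebpg and the growth brake Sesn2 rose in both lines, and the transporter genes Slc6a9, Slc7a5 and Slc1a4 and the serine-glycine enzyme gene Shmt2 fell in both. No gene was called in opposite directions, and 18 of 31 were called in neither line. After centring on the median gene, 22 rose and 1 fell in Q111 cells and 12 rose and 3 fell in Q7 cells. With that centring 10992 of all genes rose and 2339 fell in Q111 cells, against 3633 and 5125 as deposited, and 4834 rose and 2058 fell in Q7 cells, against 2232 and 3293 as deposited. With the actin gap as a covariate, 3 of the 31 rose (Cebpb, Cebpg and Sesn2) and 2 fell (Slc6a9 and Slc7a5) in Q111 cells, where 1402 of all genes rose and 2979 fell. In Q7 cells that fit gave 1 rise (Cebpb) and 0 falls, where 252 of all genes rose and 184 fell. The actin gap was 1.35 to 1.60 on heat-shocked Q7 arrays and 0.38 to 0.69 on untreated ones, without overlap. The fit could therefore hardly tell heat shock from the actin gap in Q7 cells.

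**Figure D1:**
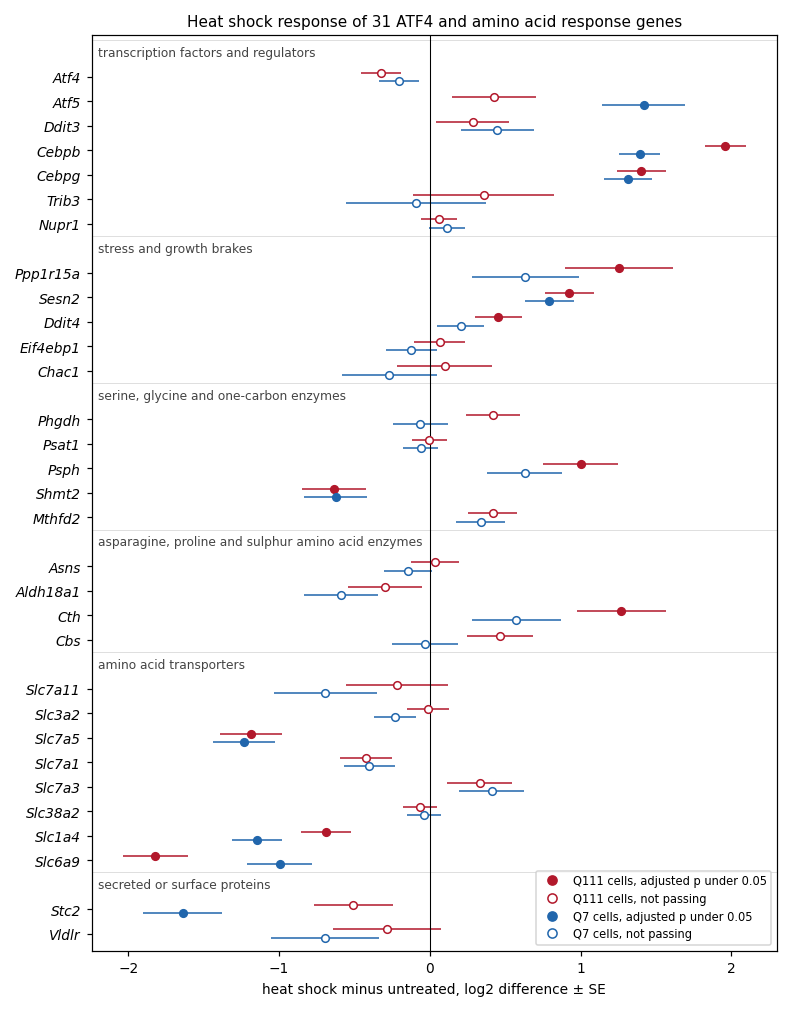
Log2 difference between heat-shocked and untreated cells for 31 genes grouped by role, Q111 cells (red) above Q7 cells (blue), with bars for the SE and filled points where the adjusted p was under 0.05. Cebpb, Cebpg and Sesn2 lie to the right in both lines, and Slc7a5, Slc1a4 and Slc6a9 to the left in both.

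Atf4 itself, the factor at the head of the response, did not pass the test in either line as deposited. Its levels were 12.60, 12.68 and 12.35 in heat-shocked Q111 cells, against 12.79, 12.90 and 12.91 in untreated Q111 cells. In Q7 cells the levels were 13.01, 12.85 and 12.90 after heat shock, against 13.07, 13.02 and 13.28 untreated. In each line all 3 heat-shocked arrays lay below all 3 untreated ones. The differences were -0.32 (SE 0.13, adjusted p = 0.0639) in Q111 cells and -0.20 (SE 0.13, adjusted p = 0.288) in Q7 cells. After median-gene centring the Q111 difference was 0.40 and passed the test as a rise (adjusted p = 0.0327). The centred Q7 difference was 0.15 and did not pass. The other Atf4 probe set above background gave 0.27 and 0.05 as deposited, without passing. The direction therefore depends on the scaling and on the probe set.

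Ddit3, which encodes CHOP, a factor tied to cell death under lasting stress, read 11.06, 11.28 and 10.69 in heat-shocked Q111 cells and 10.48, 10.88 and 10.81 in untreated ones. Heat-shocked Q7 cells had 11.78, 11.46 and 11.75, against 10.85, 11.04 and 11.76 in untreated Q7 cells. The groups overlapped in both lines, in Q7 cells through the third untreated array. The differences were 0.28 (SE 0.24, adjusted p = 0.350) and 0.45 (SE 0.24, adjusted p = 0.193). Without the third untreated Q7 array the difference in Q7 cells was 0.72 and passed the test. With median-gene centring the differences were 1.01 in Q111 and 0.80 in Q7 cells, and both passed.

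Trib3, a pseudokinase that restrains ATF4 and CHOP, was the most variable of the regulators. It had levels of 9.91, 10.34 and 9.53 in heat-shocked and 8.74, 10.17 and 9.80 in untreated Q111 cells. Levels in Q7 cells were 10.04, 9.92 and 10.16 after heat shock and 9.40, 9.72 and 11.28 untreated. Heat-shocked and untreated arrays overlapped in both lines. The first untreated Q111 array was the lowest and the third untreated Q7 array the highest of the 12. The differences were 0.36 (SE 0.47, adjusted p = 0.548) in Q111 cells and -0.09 (SE 0.47, adjusted p = 0.912) in Q7 cells. Without the third untreated Q7 array the difference in Q7 cells turned to 0.48, without passing the test. With median-gene centring the Q111 difference was 1.08 and passed, while that in Q7 cells, at 0.26, did not.

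Among the rises of the 31 genes, those of Cebpb and Cebpg had the smallest p-values in both lines. C/EBPβ and C/EBPγ are bZIP factors that can pair with ATF4 on composite DNA sites. Cebpb had 10.21, 9.85 and 9.84 in heat-shocked Q111 cells, against 8.09, 8.05 and 7.88 in untreated Q111 cells, and 9.77, 9.75 and 9.86 in heat-shocked Q7 cells, against 8.36, 8.51 and 8.35 in untreated Q7 cells. Every heat-shocked array was above every untreated one. The rise was 1.96 (SE 0.14, adjusted p = 3.76e-06) in Q111 cells, 3.89-fold, and 1.39 (SE 0.14, adjusted p = 3.92e-05) in Q7 cells, 2.62-fold. The other probe set for Cebpb gave differences of 0.18 and 0.15 that did not pass.

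Cebpg levels were 11.27, 11.17 and 11.25 after heat shock and 9.99, 9.77 and 9.71 untreated in Q111 cells. In Q7 cells they were 11.47, 11.44 and 11.37 after heat shock and 10.48, 9.88 and 9.98 untreated. These groups did not overlap either, and the rises of 1.40 (SE 0.16, adjusted p = 6.18e-05) and 1.32 (SE 0.16, adjusted p = 0.000146) were alike in size. The difference between the 2 rises was 0.09 (SE 0.23, adjusted p = 0.862).

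Atf5, a close relative of ATF4 that is itself under translational control and promotes expression of mitochondrial stress genes, was called in Q7 cells. It had 11.80, 11.60 and 11.55 in heat-shocked Q7 cells, against 10.06, 10.45 and 10.19 in untreated Q7 cells. In Q111 cells it had 10.49, 10.54 and 9.97 after heat shock and 9.29, 10.56 and 9.86 untreated. The Q7 groups were fully separated and the Q111 groups overlapped. Atf5 rose by 1.42 (SE 0.28, adjusted p = 0.00253), 2.67-fold, in Q7 cells, while the difference in Q111 cells was 0.43 (SE 0.28, adjusted p = 0.223). The test of the 2 effects against each other gave -0.99 (SE 0.39, adjusted p = 0.171), so the responses of the lines were not shown to differ. After median-gene centring Atf5 differed by 1.15 in Q111 and 1.77 in Q7 cells, and both passed. Nupr1, a small stress-induced chromatin protein, differed by 0.06 and 0.11 as deposited and was not called. As deposited, of the 7 transcription factor and regulator genes, 2 rose in Q111 and 3 in Q7 cells, and 0 fell in either. Over all genes 20.0% rose and 28.2% fell in Q111 cells, and 12.3% rose and 18.1% fell in Q7 cells.

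Among the 5 stress and growth brakes, 3 rose in Q111 cells and 1 in Q7 cells, against 20.0% and 12.3% of all genes. Ppp1r15a encodes GADD34, which recruits the phosphatase that reverses eIF2 phosphorylation. It had 10.87, 10.41 and 10.30 in heat-shocked Q111 cells, against 8.52, 9.87 and 9.42 in untreated Q111 cells, and 10.14, 9.89 and 10.24 in heat-shocked Q7 cells, against 8.84, 9.45 and 10.08 in untreated Q7 cells. The Q111 groups were apart and the Q7 groups overlapped through the third untreated array. The rise in Q111 cells was 1.25 (SE 0.36, adjusted p = 0.0135) and the difference in Q7 cells 0.63 (SE 0.36, adjusted p = 0.214). Without the first untreated Q111 array the Q111 difference was 0.88 and no longer passed.

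Sesn2 encodes sestrin 2, a leucine sensor that restrains the growth kinase complex mTORC1. Its levels were 8.48, 8.09 and 8.02 in heat-shocked Q111 cells, against 7.44, 7.27 and 7.11 in untreated Q111 cells. Its levels were 8.52, 8.38 and 8.54 in heat-shocked Q7 cells, against 7.63, 7.54 and 7.90 in untreated Q7 cells. Neither pair of groups overlapped. Sesn2 rose by 0.92 (SE 0.16, adjusted p = 0.000881) in Q111 cells and by 0.79 (SE 0.16, adjusted p = 0.00339) in Q7 cells. The other Sesn2 probe set passed in neither line, with differences of 0.34 in Q111 and 0.83 in Q7 cells. Ddit4, which encodes the mTORC1 inhibitor REDD1, rose by 0.46 (SE 0.16, adjusted p = 0.0314) in Q111 cells. That difference lay between 0.36 and 0.51 with any 1 array left out, and it did not pass without the first or second heat-shocked or the third untreated Q111 array. Chac1, a glutathione-degrading enzyme often read as a marker of ATF4 activity, differed by 0.10 (SE 0.32, adjusted p = 0.813) and -0.27 (SE 0.32, adjusted p = 0.579). The translation repressor gene Eif4ebp1 differed by 0.07 and -0.12 on the probe set used, while another of its probe sets rose by 1.68 in Q111 and 2.16 in Q7 cells.

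The genes of serine, glycine and one-carbon synthesis did not all move the same way on the probe sets used. Phgdh, Psat1 and Psph encode the 3 steps from a glycolytic intermediate to serine, and Shmt2 and Mthfd2 the mitochondrial handling of its one-carbon unit. Psph rose by 1.002 (SE 0.25, adjusted p = 0.00662) in Q111 cells, while the difference in Q7 cells was 0.63 (SE 0.25, adjusted p = 0.0779), and without the third untreated Q7 array it was 0.91 and passed. Shmt2 fell by 0.63 in each line (adjusted p = 0.0289 in Q111 and 0.0444 in Q7 cells), with overlapping arrays in Q111 cells. That fall rested on few arrays, since it ranged from -0.81 to -0.41 in Q111 cells with 1 array left out and lost its call without any 1 of 4 Q111 arrays (replicates 2 and 3 of each group). In Q7 cells it lost its call without any single Q7 array, at -0.69 to -0.54. After median-gene centring Shmt2 in Q111 cells stood at 0.09. Of its 3 other probe sets, 2 were called lower in Q111 and all 3 in Q7 cells. Psat1 differed by less than 0.1 in both lines, and Phgdh (0.42 and -0.06) and Mthfd2 (0.42 and 0.34) were not called. Other probe sets of these genes were called higher in Q111 cells: 1 of Mthfd2, by 0.90 (adjusted p = 0.0047), and 3 of Phgdh, by 0.73 (adjusted p = 0.0385), 0.85 (adjusted p = 0.0204) and 3.14 (adjusted p = 1.49e-06). None of these was called in Q7 cells.

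Asns encodes asparagine synthetase, the enzyme in which the amino acid response was first worked out. Levels were 12.04, 11.94 and 12.04 in heat-shocked and 11.73, 12.09 and 12.10 in untreated Q111 cells, and 12.28, 12.21 and 12.25 in heat-shocked and 12.36, 12.14 and 12.68 in untreated Q7 cells. All 12 arrays lay within about 1 log2 unit and heat-shocked and untreated arrays overlapped in both lines. The differences were 0.04 (SE 0.16, adjusted p = 0.864) and -0.14 (SE 0.16, adjusted p = 0.557).

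Cth, which encodes the cysteine-forming enzyme cystathionine gamma-lyase, was the called gene among the asparagine, proline and sulphur amino acid enzymes. It had 9.58, 9.93 and 9.09 in heat-shocked Q111 cells, against 8.11, 8.48 and 8.21 in untreated Q111 cells, with no overlap. In Q7 cells it had 10.78, 10.77 and 10.81 after heat shock, against 9.92, 9.77 and 10.95 untreated, and the third untreated array was above all heat-shocked ones. The rise was 1.27 (SE 0.29, adjusted p = 0.00443) in Q111 cells. The difference in Q7 cells was 0.57 (SE 0.29, adjusted p = 0.169), and without the third untreated Q7 array it was 0.94 and passed. The effects of the lines differed by 0.70 (SE 0.41, adjusted p = 0.368). Cbs, the enzyme before Cth in the same pathway, and Aldh18a1, which begins proline synthesis, were not called on the probe sets used. Of the 4 other Aldh18a1 probe sets, 3 were called lower in Q7 cells, with differences of -0.69, -0.72 and -0.62, and 0 in Q111 cells.

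Of the 8 amino acid transporter genes, 3 fell and 0 rose in each line. Over all genes 28.2% fell and 20.0% rose in Q111 cells, and 18.1% fell and 12.3% rose in Q7 cells. Slc6a9 encodes the glycine transporter GlyT1. It had 10.26, 9.25 and 9.85 in heat-shocked Q111 cells, against 11.74, 11.69 and 11.39 in untreated Q111 cells, and 11.07, 10.90 and 11.02 in heat-shocked Q7 cells, against 12.06, 11.91 and 12.001 in untreated Q7 cells. All heat-shocked arrays were below all untreated arrays of their line. Slc6a9 fell by 1.82 (SE 0.22, adjusted p = 7.47e-05) in Q111 cells, to 0.283 of the untreated level, and by 0.996 (SE 0.22, adjusted p = 0.00473) in Q7 cells. After median-gene centring the Q7 difference was -0.64 and no longer passed. The falls of the lines differed by -0.82 (SE 0.31, adjusted p = 0.147), which did not pass.

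Slc7a5 encodes LAT1, the carrier of large neutral amino acids such as leucine. It had 10.11, 9.47 and 9.63 after heat shock and 10.77, 11.29 and 10.72 untreated in Q111 cells. In Q7 cells it had 10.29, 10.00 and 10.24 after heat shock and 11.46, 11.21 and 11.55 untreated. The groups were separated in both lines, with falls of 1.19 (SE 0.21, adjusted p = 0.000794) and 1.23 (SE 0.21, adjusted p = 0.000959). With median-gene centring the Slc7a5 difference in Q111 cells was -0.46 and no longer passed, and in Q7 cells it was -0.88 and passed. The partner chain of LAT1, encoded by Slc3a2, did not follow, at -0.01 (SE 0.14, adjusted p = 0.957) in Q111 and -0.23 (SE 0.14, adjusted p = 0.249) in Q7 cells.

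Slc1a4 encodes ASCT1, a carrier of alanine, serine and cysteine. It had 11.12, 10.86 and 11.10 in heat-shocked Q111 cells, against 11.62, 11.72 and 11.80 in untreated Q111 cells, and 10.58, 10.69 and 10.91 in heat-shocked Q7 cells, against 11.63, 11.80 and 12.19 in untreated Q7 cells. Neither pair overlapped. It fell by 0.69 (SE 0.17, adjusted p = 0.00584) in Q111 and by 1.14 (SE 0.17, adjusted p = 0.000418) in Q7 cells, and median-gene centring turned the Q111 value to 0.04. Of its other 2 probe sets, 1 was called lower in Q111 cells and 0 in Q7 cells. The cystine importer gene Slc7a11, the cationic amino acid carrier genes Slc7a1 and Slc7a3, and Slc38a2, the neutral amino acid carrier SNAT2, were called in neither line on the probe sets used, with differences from -0.69 to 0.41.

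Stc2, a secreted glycoprotein induced by several stresses, fell in Q7 cells. It had 7.35, 6.44 and 6.79 in heat-shocked Q7 cells, against 8.78, 8.30 and 8.43 in untreated Q7 cells, and 5.97, 5.99 and 5.30 in heat-shocked Q111 cells, against 6.51, 6.28 and 5.997 in untreated Q111 cells. The Q7 groups were well apart, while the nearest Q111 arrays, at 5.99 and 5.997, nearly touched. The difference in Q7 cells was -1.64 (SE 0.26, adjusted p = 0.000787), and the difference in Q111 cells was -0.51 (SE 0.26, adjusted p = 0.134). The effects of the lines differed by 1.13 (SE 0.37, adjusted p = 0.105).

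**Figure D2:**
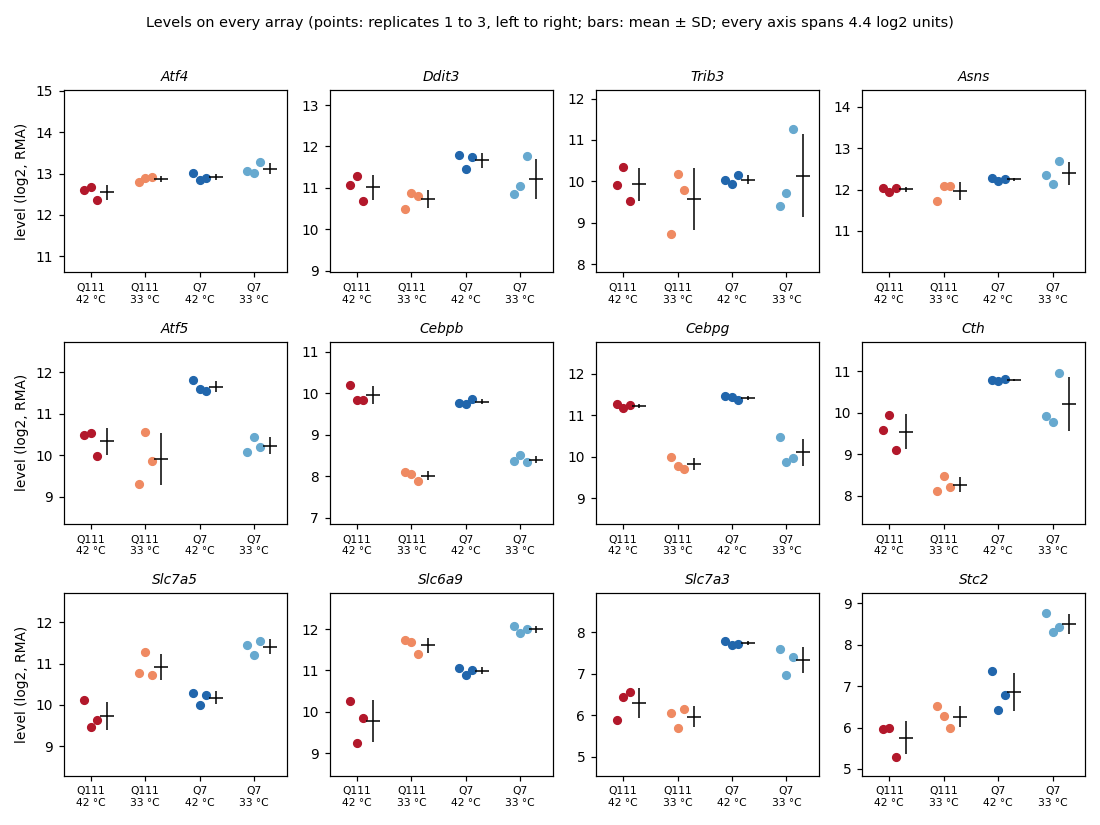
Log2 levels on every array for 12 genes, with the groups from left to right as heat-shocked Q111, untreated Q111, heat-shocked Q7 and untreated Q7 cells, points for replicates and bars for mean ± SD (n = 3). The third untreated Q7 array is the highest of its group for Atf4, Ddit3, Trib3, Asns, Cth and Slc7a5, and all heat-shocked arrays lie above the untreated ones of their line for Cebpb and Cebpg.

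For the difference of the heat shock effects between the lines (Q111 effect minus Q7 effect), 0 of 31 genes passed limma's test in either direction, against 1.21% of all genes higher and 4.51% lower. The median of the 31 differences was 0.19, and 4 genes had an unadjusted p under 0.05. In alternative fits the count was up to 2 higher and up to 2 lower. The largest differences were 1.13 for Stc2 and -0.99 for Atf5.

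The element bound by ATF4 with a C/EBP partner, the C/EBP-ATF response element, was searched in the RefSeq promoter windows of build GRCm38.p6, which run from 250 bases before to 50 after an annotated start. The letters searched were TGATGNAA on both strands, which reads TTNCATCA on the other strand. A match was present in 7 of the 27 genes with a window (25.9%), against 4.51% of all 27025 genes with one. Slc7a5, Slc7a3, Cth and Eif4ebp1 had no window. The stretches around the matches are shown because they set genes with the classical site beside their measured response, with the match in capitals, each read 5′ to 3′ on the strand of its gene.
Asns, chr6:7693210-7693262, minus strand: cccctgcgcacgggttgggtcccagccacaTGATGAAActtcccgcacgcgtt
Chac1, chr2:119351019-119351086, plus strand: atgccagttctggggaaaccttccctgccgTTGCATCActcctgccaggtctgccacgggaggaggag
Slc7a11, chr3:50443623-50443709, minus strand: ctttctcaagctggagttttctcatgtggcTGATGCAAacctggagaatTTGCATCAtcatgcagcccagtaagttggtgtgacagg
Nupr1, chr7:126625543-126625610, minus strand: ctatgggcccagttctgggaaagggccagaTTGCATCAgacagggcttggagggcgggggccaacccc
Trib3, chr2:152344028-152344057, minus strand: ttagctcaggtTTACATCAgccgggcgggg
Slc1a4, chr11:20332699-20332728, minus strand: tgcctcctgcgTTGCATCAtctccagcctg
Vldlr, chr19:27216809-27216838, plus strand: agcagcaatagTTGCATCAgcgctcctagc
Counted from the annotated start, with bases before it negative, the match began at -23 in Asns, -193 in Chac1, -110 in Nupr1 and -4 in Slc1a4, and at -200 from the second annotated start of Vldlr. Slc7a11 held a pair that began at -66 and -47, and in Trib3 the match ran from base 15 to 22 after the start. As deposited, of these 7 genes 0 rose after heat shock in either line, and 1, Slc1a4, fell in both. Their differences ran from -0.69 to 0.36 in Q111 and from -1.14 to 0.11 in Q7 cells. This depends on the scaling. With median-gene centring, which called 10992 of all 18193 genes higher in Q111 cells, Trib3 (1.08), Chac1 (0.83) and Nupr1 (0.79) passed as rises there. Nupr1 (0.47) also passed as a rise in Q7 cells, and the Q111 fall of Slc1a4 was lost. The heat shock element, searched on both strands as GAANNTTCNNGAA, had 0 matches in the 27 genes and was found in 0.662% of all genes. It also had no match in the windows of Hspa1a and Hspb1.

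At 33 °C most of the module lay lower in the mutant line. Of 31 genes 30 had a negative difference (Q111 minus Q7), at a median of -0.43, against -0.0041 over all genes. The test was passed by 7 genes, all lower in Q111 cells, against 5.68% of all genes lower and 5.11% higher. These were Stc2, Cth, Vldlr, Slc7a3, Nupr1, Ddit4 and Slc7a1. Without the third untreated Q7 array, which was high for much of the module, 4 genes passed, the median was -0.34 and 5 genes were positive. Vldlr, Ddit4 and Slc7a1 did not pass without it, nor did they without the third untreated Q111 array, which also left 4 calls. With median-gene centring Vldlr, Ddit4 and Slc7a1 did not pass either. Within the untreated arrays, whose replicate numbers moved together between the lines, a fit with the replicate number as a block also called 7 genes lower. In each of the related gene lists given below, negative differences at 33 °C also outnumbered positive ones. Cell type markers also differed between the lines: the mean of 8 neural progenitor genes lay between 6.21 and 6.50 in untreated Q111 cells, with 4 above background, and between 8.51 and 8.57 in untreated Q7 cells, with 7 above background. Msi1 in that list was higher in untreated Q111 cells, at 8.14 against 7.75. The mean of 6 fibroblast genes was higher in untreated Q111 cells, at 8.78 to 8.86, than in untreated Q7 cells, at 7.34 to 7.66. In each line 4 of these were above background untreated. The widest gaps were those of Col1a2 (12.96 against 9.47) and Pdgfra (10.61 against 8.18). The part of such markers in these results was not tested.

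Stc2 had 6.51, 6.28 and 5.997 in untreated Q111 cells, against 8.78, 8.30 and 8.43 in untreated Q7 cells. The difference was -2.24 (SE 0.26, adjusted p = 0.000139), 0.212 of the Q7 level. Cth, with the arrays given above, averaged 8.27 ± 0.19 in untreated Q111 and 10.21 ± 0.64 in untreated Q7 cells (SD, n = 3 each), a difference of -1.95 (SE 0.29, adjusted p = 0.000868). All 3 Q111 arrays were below all 3 Q7 arrays for both genes. Without the third untreated Q7 array Cth still differed by -1.58 and Stc2 by -2.27, and both passed.

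Vldlr, a lipoprotein receptor of the LDL receptor family, had 9.93, 10.19 and 10.27 in untreated Q111 cells, against 11.21, 11.34 and 11.95 in untreated Q7 cells. The groups did not overlap, and the difference was -1.37 (SE 0.36, adjusted p = 0.0296). It ranged from -1.52 to -1.15 with 1 array left out and lost its call without any of the 3 untreated Q111 arrays, or without replicate 2 or 3 of untreated Q7 cells. Slc7a3 differed by -1.36 (SE 0.21, adjusted p = 0.00120) and Nupr1 by -0.70 (SE 0.12, adjusted p = 0.00214). Smaller differences were those of Ddit4 (-0.61, SE 0.16, adjusted p = 0.0259) and Slc7a1 (-0.59, SE 0.17, adjusted p = 0.0466), and the call for Slc7a1 was lost in 10 of the 12 fits that left out 1 array. The remaining 24 genes were not called, among them Atf4 (-0.25, SE 0.13, adjusted p = 0.340), Asns (-0.42, SE 0.16, adjusted p = 0.141), Ddit3 (-0.49, SE 0.24, adjusted p = 0.297) and Trib3 (-0.56, SE 0.47, adjusted p = 0.644). For Trib3 that difference was 0.0070 without the third untreated Q7 array. The other Asns probe set, 1433966_x_at, was called lower in Q111 cells at 33 °C, at -0.50 (adjusted p = 0.0464).

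**Figure D3:**
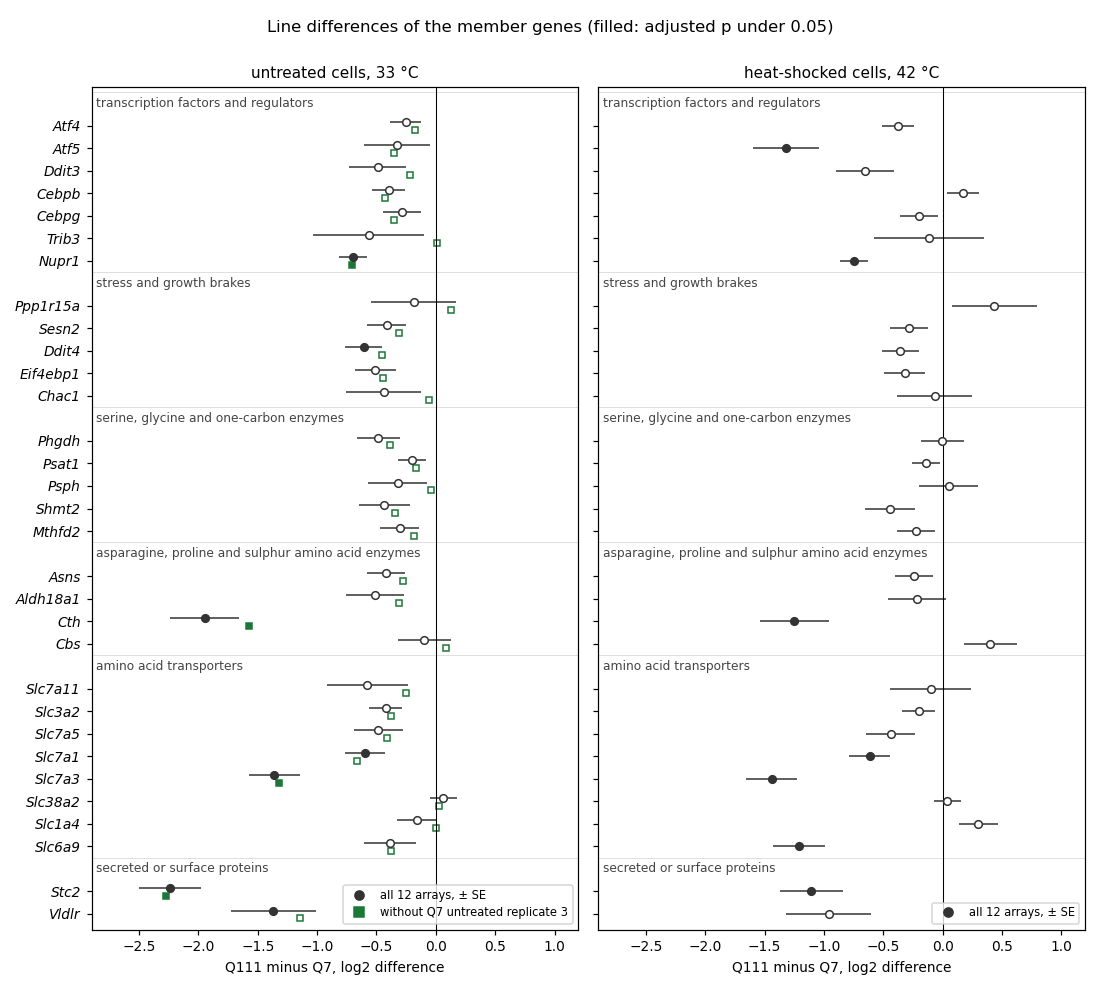
Log2 difference between Q111 and Q7 cells for 31 genes, in untreated cells at 33 °C on the left and in heat-shocked cells on the right, with bars for the SE, filled points where the adjusted p was under 0.05, and green squares for the fit without the third untreated Q7 array. At 33 °C 30 of 31 points lie left of 0, and most squares lie nearer to 0 than their circles.

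After heat shock, 7 genes were lower in Q111 than in Q7 cells and 0 were higher, against 15.5% and 6.58% of all genes. The median was -0.24, against -0.0042 over all genes. A fit of the 9097 brighter genes, with means at or above that of the median gene, called 2354 lower and 753 higher. The median of those brighter genes was -0.20, near that of the module. Slc7a3, Cth, Stc2, Nupr1 and Slc7a1 were called at both temperatures, and Atf5 and Slc6a9 were called after heat shock. On the probe sets used, the largest difference was that of Slc7a3, which encodes a carrier of arginine and lysine. It had 5.88, 6.44 and 6.57 in heat-shocked Q111 cells, against 7.79, 7.70 and 7.72 in heat-shocked Q7 cells, and 6.05, 5.69 and 6.16 in untreated Q111 cells, against 7.60, 6.98 and 7.40 in untreated Q7 cells. No Q111 array reached a Q7 array. The difference after heat shock was -1.44 (SE 0.21, adjusted p = 0.000669). Some probe sets not used for their genes differed by more between the heat-shocked lines. These were Phgdh 1454714_x_at (-4.28), Vldlr 1435893_at (-3.92), Vldlr 1417900_a_at (-2.33) and Cebpg 1425261_at (-2.05), all called lower in Q111 cells.

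Atf5, with the arrays given above, averaged 10.33 ± 0.32 in heat-shocked Q111 and 11.65 ± 0.13 in heat-shocked Q7 cells (SD, n = 3 each). The difference was -1.32 (SE 0.28, adjusted p = 0.00552), while at 33 °C it was -0.33 (SE 0.28, adjusted p = 0.657). Cth differed by -1.25 (SE 0.29, adjusted p = 0.0101) and Slc6a9 by -1.21 (SE 0.22, adjusted p = 0.00218). Stc2 differed by -1.11 (SE 0.26, adjusted p = 0.0113) and did not pass without the first heat-shocked Q7 array, at -0.86, nor on its other 2 probe sets, at -0.25 and -0.67. Nupr1 differed by -0.75 (SE 0.12, adjusted p = 0.00102), and by -0.37 with median-gene centring, which no longer passed. Slc7a1, at -0.62 (SE 0.17, adjusted p = 0.0234), lost its call without the second heat-shocked Q111 array or any heat-shocked Q7 array, in the range from -0.77 to -0.44 over arrays left out. With that centring it was -0.24 and did not pass, and 3 genes were higher and 5 lower in Q111 cells.

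Probe sets of 1 gene can read different ends or forms of its transcript, and 22 of the 31 genes had more than 1. Of the 71 probe sets in all, 40 were not used above. The widest disagreement was in Phgdh, the first enzyme of serine synthesis. Its probe set 1454714_x_at had 8.88, 8.38 and 8.73 in heat-shocked Q111 cells, against 5.51, 5.77 and 5.30 in untreated Q111 cells, and 12.97, 12.87 and 12.99 in heat-shocked Q7 cells, against 12.89, 13.18 and 13.25 in untreated Q7 cells. It was far lower on all Q111 arrays, with a line difference of -7.58 at 33 °C (adjusted p = 1.85e-09), and it rose by 3.14 after heat shock in Q111 cells (adjusted p = 1.49e-06). The other 3 probe sets of Phgdh gave line differences of -0.48, -0.72 and -0.59 at 33 °C, none of which passed. After heat shock in Q111 cells 2 of these 3 rose as well, as given above, and the one used for the gene was not called.

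Vldlr probe set 1435893_at fell by 2.32 after heat shock in Q111 cells (adjusted p = 2.53e-05) and differed by 0.03 in Q7 cells. Its arrays were 5.50, 5.49 and 4.72 in heat-shocked Q111 cells, against 7.32, 7.68 and 7.69 in untreated Q111 cells. A further Vldlr probe set, 1417900_a_at, fell by 1.46 in Q111 cells, whereas the other 4, the one used above among them, were not called there. Cebpg probe set 1425261_at rose by 1.95 in Q7 cells (adjusted p = 0.000474) and differed by 0.33 in Q111 cells, while the remaining Cebpg probe sets rose in both lines. All 3 probe sets of Stc2 were called lower after heat shock in Q7 cells, with differences of -1.64, -1.24 and -2.66, the last against a heat-shocked level in background range. Ddit3 probe set 1443897_at rose by 1.67 in Q7 cells (adjusted p = 0.00133) and differed by 0.76 in Q111 cells (adjusted p = 0.0522). For Slc7a1, probe set 1454992_at fell by 1.34 and 1.29 in Q111 and Q7 cells, where the one used above was not called.

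**Figure D4:**
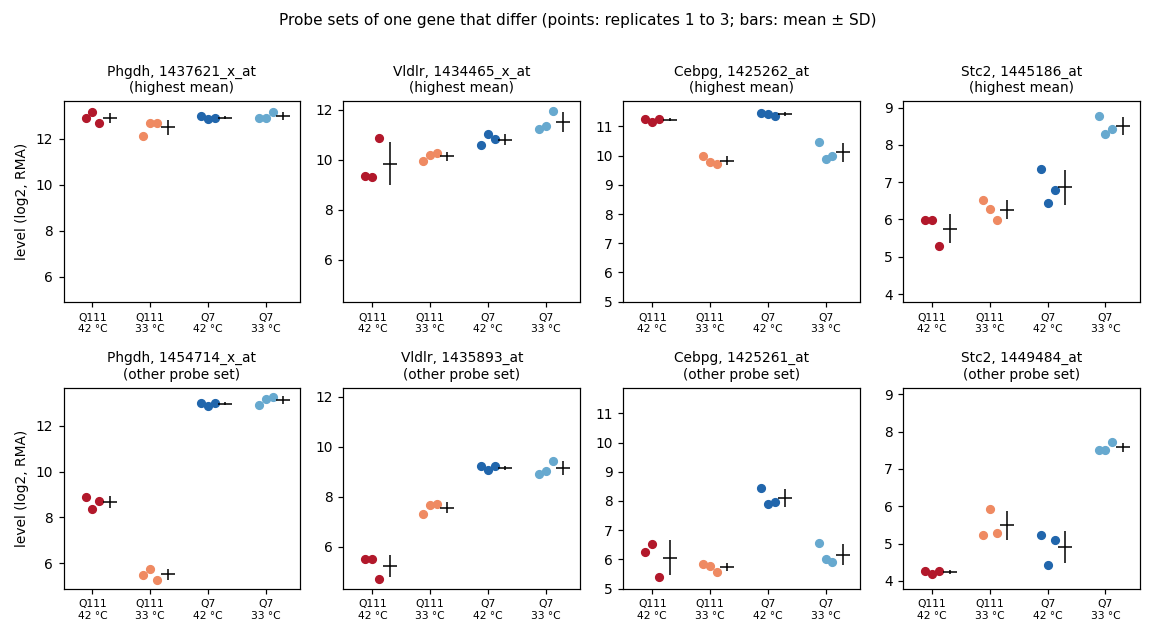
Log2 levels on every array for the probe set used (top row) and a probe set that differs from it (bottom row) of Phgdh, Vldlr, Cebpg and Stc2, with bars for mean ± SD (n = 3) and 1 scale per gene. Phgdh 1454714_x_at lies near 5.5 in untreated Q111 cells and near 13 in Q7 cells.

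Genes around the module were described with lists taken from the same fit. Of 17 genes of the eIF2 kinases and eIF2 machinery, 2 rose and 6 fell in Q111 cells and 1 rose and 3 fell in Q7 cells. Over all genes 20.0% rose and 28.2% fell in Q111 cells, and 12.3% rose and 18.1% fell in Q7 cells. Eif2ak3, which encodes PERK, rose by 1.37 (SE 0.25, adjusted p = 0.00125) in Q111 and by 0.73 (SE 0.25, adjusted p = 0.0484) in Q7 cells. Eif2b2, a subunit of the exchange factor eIF2B, rose by 0.94 in Q111 cells. Dele1, a mitochondrial protein that relays stress to HRI, fell by 2.19 (SE 0.35) and Eif2ak4, which encodes GCN2, by 1.19 (SE 0.21), both in Q111 cells. In Q7 cells the largest falls were those of the eIF2B subunit gene Eif2b3 (-1.74) and of Oma1 (-1.30), the protease that cleaves DELE1. At 33 °C 0 of the 17 were called between the lines, though 14 had a negative difference (Q111 minus Q7), at a median of -0.18.

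The cytosolic aminoacyl-tRNA synthetases charge tRNAs with amino acids, and ATF4 is known to raise many of their genes. Here all 19 measured had negative differences after heat shock in both lines, at medians of -0.52 in Q111 and -0.67 in Q7 cells. In Q111 cells 14 fell and 0 rose, and in Q7 cells 13 fell and 0 rose. Of all genes 28.2% fell in Q111 and 18.1% in Q7 cells. In the fit of the 9097 brighter genes 3940 fell in Q111 and 2635 in Q7 cells, at medians of -0.36 and -0.12. Eprs fell by 1.35 (SE 0.21) in Q111 and 1.60 (SE 0.21) in Q7 cells, Vars by 1.32 in Q111 cells and Lars by 1.41 in Q7 cells. The direction depends on the scaling in Q111 cells: with median-gene centring 5 rose and 2 fell there, and 0 rose and 6 fell in Q7 cells. Between the lines at 33 °C 4 were lower in Q111 cells, by most in Yars (-1.11). There 18 of the 19 had a negative difference, at a median of -0.33.

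**Figure D5:**
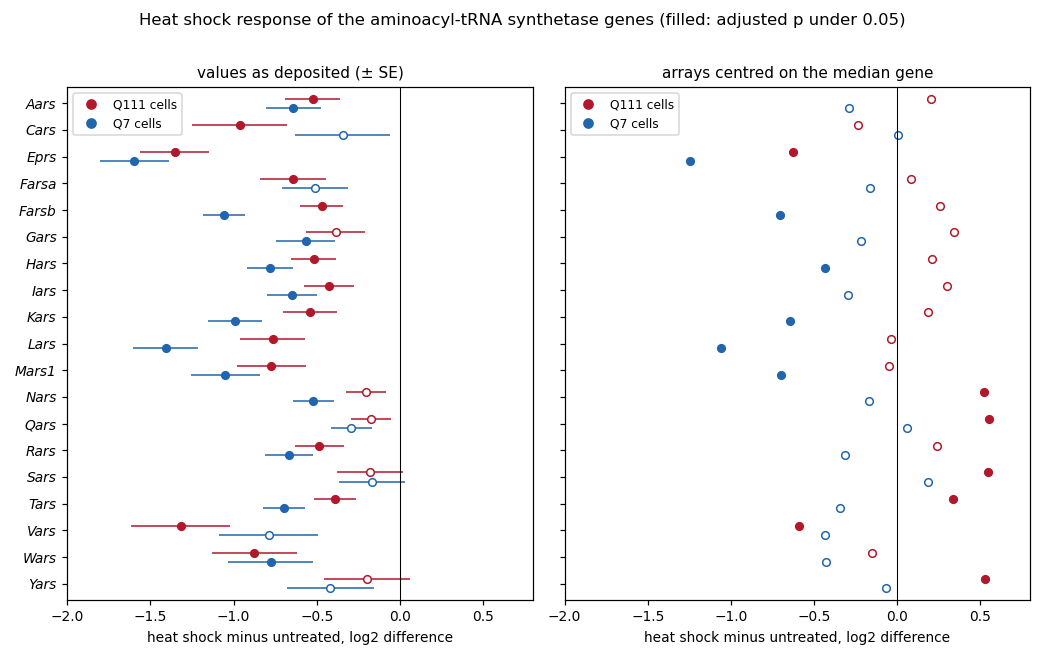
Log2 difference between heat-shocked and untreated cells for 19 aminoacyl-tRNA synthetase genes, Q111 cells (red) above Q7 cells (blue), as deposited with the SE on the left and after centring arrays on the median gene on the right. All points lie left of 0 as deposited, and the Q111 points lie on both sides of 0 after centring.

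Among 19 further genes reported as ATF4 targets or partners, 7 rose and 4 fell in Q111 cells and 3 rose and 3 fell in Q7 cells. The shares of all genes that rose and fell were 20.0% and 28.2% in Q111 cells and 12.3% and 18.1% in Q7 cells. Atf3, a stress-induced repressor, had 12.33, 12.27 and 12.17 in heat-shocked Q111 cells, against 8.63, 9.06 and 9.14 in untreated Q111 cells, and 11.30, 11.42 and 11.55 in heat-shocked Q7 cells, against 8.53, 8.72 and 9.90 in untreated Q7 cells. Its rise, 3.32 (SE 0.30) in Q111 and 2.37 (SE 0.30) in Q7 cells, was larger than that of any of the 31 genes. Fgf21, a secreted metabolic hormone, rose by 1.85 in Q111 cells. It was also called higher in Q7 cells, by 1.35, but its untreated Q7 mean of 5.13 was in background range, so that size is not exact. Slc38a1, a glutamine carrier, fell by 2.60 in Q111 cells, and Niban1 by 1.83. The largest falls in Q7 cells were those of Mthfd1l (-1.71), which makes formate in mitochondria, and Got1 (-1.17), the cytosolic aspartate aminotransferase. At 33 °C Niban1 was higher by 3.18 and Slc38a1 lower by 1.44 in Q111 cells. Of the 19 genes 5 were called lower and 1 higher there, against 5.68% and 5.11% of all genes. Negative differences numbered 16, at a median of -0.25 for the list. Of 5 genes of glutathione metabolism and glutamine import, 2 fell in Q111 cells, Gsr by 0.87 and Slc1a5 by 0.80. In Q7 cells 1 fell, Gsr by 0.51. The glutathione synthesis genes Gclc, Gclm and Gss were called for heat shock in neither line. Slc1a5 was lower in Q111 cells at 33 °C (-1.91), where 3 of the 5 had a negative difference, at a median of -0.60.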

How the data were processed

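RNA was hybridised to 12 one-colour arrays, and the deposited log2 values per probe set were made by the authors with RMA (background correction, quantile normalization, probe summary), per the submitters' processing notes. Its software and chip definition are unstated here. Of 45101 probe sets 34945 named 1 gene, and the 932 naming several were left out. One probe set per gene, the brightest over all arrays, was kept. limma 3.58.1 (R 4.3.3) fitted 4 group means to 18193 genes (8 residual and 3.23 prior degrees of freedom) with 5 contrasts, two-sided, Benjamini-Hochberg adjusted, called under 0.05. The script was tested on simulated data. Members and lists were chosen with earlier results of these data known.

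Values on every array are given for Atf4, Ddit3, Trib3, Asns and, among called members whose groups did not overlap, the 4 largest rises and falls per line and the 3 largest line differences per temperature. Other lists are named by their 2 largest called rises and falls per line, the largest line difference at 33 °C in each direction, and Atf3. Genes and probe sets named beside small counts or for probe set disagreement were chosen after their values were seen.

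Replicate numbers come from the labels. Deviations of untreated arrays with the same number correlated across genes between the lines (r = 0.516, 0.402 and 0.577). An alternative fit of the untreated arrays therefore treated them as paired, which the labels do not state. The main fit, which gave the differences and p-values of the Results, had no pairing. Alternatives covered probe set choice, scaling, actin gap, array weights, variance trend, replicate block, threshold and leaving out each array. Array number limits precision.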

Additional observations from a re-analysis of the deposited data

Results flagged for a closer look

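The heat shock effect differed between the lines for 6 features around the module, by the test of the difference itself (Q111 effect minus Q7 effect, limma, adjusted over all genes or all probe sets). Slc38a1 differed by -1.81 (adjusted p = 0.0191), with 8.30, 8.13 and 7.09 in heat-shocked Q111 cells, against 10.44, 10.59 and 10.28 in untreated Q111 cells, and 11.06, 11.12 and 11.09 in heat-shocked Q7 cells, against 12.08, 11.86 and 11.69 in untreated Q7 cells. Niban1 differed by -1.25 (adjusted p = 0.0411), and its Q7 levels were in or near background range. The other features are probe sets of members that were not used for the gene: Cebpg 1425261_at at -1.61 (adjusted p = 0.0497), Vldlr 1435893_at at -2.36 (adjusted p = 0.00412), Stc2 1449484_at at 1.42 (adjusted p = 0.0349) and Phgdh 1454714_x_at at 3.30 (adjusted p = 0.000428). The Stc2 probe set was in background range after heat shock in both lines. Groups of 3 arrays are too small for a test of single arrays that stand out.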

How the results depend on the processing

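Of 34 called differences of members, the direction was kept under the scaling, fitting and left-out-array alternatives run, except that median-gene centring turned heat shock in Q111 cells to 0.093 for Shmt2 and 0.040 for Slc1a4, and Slc7a1 after heat shock between the lines was 0.18 on probe set 1421533_at, which was in background range. Rises in Q111 cells numbered 7, and 22 with median-gene centring and 3 with the actin gap as covariate. Falls in Q111 cells numbered 4, and 7 with the mean of probe sets, 7 with every probe set, 1 with centring and 2 with the actin gap. Rises in Q7 cells numbered 4, and 12 with centring, 10 with array weights, 7 with every probe set and 1 with the actin gap. Falls in Q7 cells numbered 5, and 3 with centring, 8 with array weights and 0 with the actin gap. For the difference of effects 2 were higher with the mean of probe sets, centring, array weights or every probe set and 1 with a further quantile normalization, and 2 were lower with every probe set. Lower at 33 °C were 7, and 4 with centring and 4 at an adjusted p under 0.01. After heat shock 7 were lower, and 11 with the mean of probe sets, 12 with every probe set and 4 at an adjusted p under 0.01, while centring gave 3 higher. In the fit of every probe set, a gene counted once in a direction if any of its probe sets was called in that direction.

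Leaving out 1 array gave 6 to 9 rises and 3 to 5 falls in Q111 cells, 4 to 7 rises and 4 to 6 falls in Q7 cells, 0 to 1 higher and 0 to 1 lower for the difference of effects, 4 to 7 lower at 33 °C and 5 to 8 lower after heat shock. The replicate number as a block gave 7 rises and 4 falls in Q111 cells, 4 and 4 in Q7 cells, 0 for the difference of effects, 5 lower at 33 °C and 8 lower after heat shock. In the block fit on untreated arrays alone, which was chosen after seeing the data, 7 were lower at 33 °C, with Ddit4 no longer called and Slc3a2 called. Same-numbered arrays correlated at 0.097, 0.180 and 0.241 between the Q111 groups, at 0.146, -0.340 and -0.101 between the Q7 groups and at 0.345, -0.497 and -0.315 between the heat-shocked groups, so the numbers were not taken to pair those. Causes of these changes were not tested.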
